A study of Homo sapiens with 12 samples.

Results

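The genes described here are 9 that carry out MHC class I antigen presentation: HLA-B, HLA-C and HLA-E, which encode class I heavy chains, B2M, the light chain, TAP1 and TAP2, the peptide transporter, TAPBP (tapasin), and PSMB8 and PSMB9, catalytic subunits of the immunoproteasome. They were taken by symbol from a table of 25369 gene symbols, all 9 symbols were found, and all 9 were among the 12514 genes with enough counts to be tested.

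The samples were xenograft tumours of MDA-MB-231, an established line from a triple-negative breast cancer, grown in a mammary fat pad of mice whose strain the labels do not give. Each of the 4 groups had 10 mice and began treatment at a tumour volume of 100 mm3, with injections into the peritoneum on 5 days a week; how long treatment lasted is not stated. Control mice received the vehicle, a mix of DMSO (4%), PEG (PEG 300 at 30%) and Tween (Tween 80 at 5%), p38i mice the p38 MAP kinase inhibitor SB202190 at 1 mg/kg/day, EZH2i mice the EZH2 inhibitor EPZ-6438 (tazemetostat; the labels also spell the code EPZ-6428) at 10 mg/kg/day, and combination mice both compounds. RNA of 3 tumours per group was sequenced, and each value below is from 1 tumour.

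Proteasomes cut cytosolic proteins into peptides, and the immunoproteasome subunits, which interferon gamma induces, favour ends that class I molecules bind. TAP carries the peptides into the endoplasmic reticulum, where tapasin helps to load them onto a heavy chain paired with beta 2-microglobulin, and the complex shows them to CD8 T cells at the surface. HLA-E presents mainly leader peptides of other class I chains and is read by NK cell receptors. EZH2 is the catalytic subunit of PRC2, which places the repressive mark H3K27me3, and in other tumour cells its inhibition is known to raise class I genes. Whether that was so in these tumours, with and without the p38 inhibitor, is the question put to the 9 genes.

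The promoters of these genes are known to hold interferon-response, NF-kB and CCAAT elements. RefSeq windows (GRCh38.p14) from 250 bases before to 50 after a start site were found for 8 of the 9 genes, all but HLA-E. They were searched on both strands for GAAANNGAA (interferon-response type, in 8.11% of 35116 windows of 300 bases), GGNNTTNCC (NF-kB type, in 17.1%) and CCAAT (in 34.6%), and matches of the same kind may overlap. The 250 bases before the start are shown for TAP1 and PSMB9, a neighbouring pair whose counts were among the lowest, and for B2M and HLA-B, the light chain and a classical heavy chain. Capitals mark every match in either orientation.
TAP1 promoter (chr6:32853705-32853954, minus strand): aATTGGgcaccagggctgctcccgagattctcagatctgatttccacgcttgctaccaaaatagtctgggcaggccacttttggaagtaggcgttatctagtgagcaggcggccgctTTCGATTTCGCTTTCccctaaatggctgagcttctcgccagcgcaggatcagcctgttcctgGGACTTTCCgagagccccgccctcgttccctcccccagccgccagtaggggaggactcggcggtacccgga
PSMB9 promoter (chr6:32853942-32854191, plus strand): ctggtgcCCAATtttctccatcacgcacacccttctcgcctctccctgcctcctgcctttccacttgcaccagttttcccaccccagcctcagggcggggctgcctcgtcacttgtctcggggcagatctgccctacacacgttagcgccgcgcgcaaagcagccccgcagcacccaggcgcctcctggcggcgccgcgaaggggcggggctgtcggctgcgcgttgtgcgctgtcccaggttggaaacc
B2M promoter (chr15:44711267-44711516, plus strand): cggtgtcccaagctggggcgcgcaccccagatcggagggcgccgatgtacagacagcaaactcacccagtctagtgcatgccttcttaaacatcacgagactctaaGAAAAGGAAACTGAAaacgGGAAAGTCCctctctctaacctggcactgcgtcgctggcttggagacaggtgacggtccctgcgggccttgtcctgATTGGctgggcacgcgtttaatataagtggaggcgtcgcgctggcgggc
HLA-B promoter (chr6:31357180-31357429, minus strand): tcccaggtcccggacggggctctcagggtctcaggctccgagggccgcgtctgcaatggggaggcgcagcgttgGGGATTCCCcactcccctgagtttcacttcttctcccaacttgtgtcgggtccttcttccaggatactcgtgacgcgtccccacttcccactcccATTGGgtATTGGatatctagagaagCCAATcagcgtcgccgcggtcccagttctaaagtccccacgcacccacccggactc

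TAP1 and PSMB9 lie head to head on chromosome 6, with 487 bases between their start sites, and the windows above share 13 bases, which carry the single CCAAT match of both. The TAP1 sequence holds 2 overlapping interferon-type matches, at -133 and -127 from the start site, and an NF-kB type match at -71, and a further TAP1 window held 1 NF-kB type match. The B2M sequence also holds 2 overlapping interferon-type matches, at -144 and -138, with an NF-kB type match at -125 and a CCAAT box at -49. HLA-B showed 3 CCAAT boxes and an NF-kB type match at -176 and no GAAANNGAA, and HLA-C showed 4 CCAAT boxes and neither other string. TAP2 held 1 interferon-type match, TAPBP 2 interferon-type and 2 NF-kB type matches, and PSMB8, with 2 windows, 1 match of each of these kinds. A match describes letters in the window and was not tied to binding in these tumours.

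Library totals ran from 2208771 to 4467942 counts, and levels are given as CPM, each count as a share of its TMM-scaled library size. Per-tumour values are always listed in the order control 1-1, 1-3 and 2-1, p38i 3-3, col5 and col6, EZH2i 5-3, 5-4 and 6-1, and combination 8-1, 9-1 and 9-2. The sample descriptions assign count column 5 to 2 different p38i tumours and column 6 to none, so these libraries are called p38i col5 and p38i col6, and column 6 was taken as p38i by elimination. The library p38i col6 stood apart by skeletal muscle transcripts, whose 12 markers summed to 1611 CPM there against 47.2 to 155 CPM in the other 11 libraries. Genes known to be expressed by MDA-MB-231 summed to between 9157 and 11630 CPM. Of 22 leukocyte markers, 2 were at 0 in every library, NKG7 among them, 15 stayed under 10 counts everywhere, and the sum ran over similar ranges, 50.8 to 78.2 CPM in control, 46.4 to 82.8 with p38i, 57.2 to 72.4 with EZH2i and 61.9 to 76.8 with the combination. For p38i against control, 1 of 4 tested endothelial markers was called higher (TIE1, 0 to 3 counts in control and 9 to 29 with p38i; edgeR adjusted p = 0.0298). TIE1 was also the only 1 of the 4 with a positive log2 fold change, and their median was -0.36. The 8 listed endothelial markers summed to 69.1 to 115 CPM in control and 69.5 to 75.0 with p38i. Of 7 tested fibroblast markers, 1 was called lower (PDGFRB, 64 to 162 counts in control and 25 to 46 with p38i; edgeR adjusted p = 0.0433). Of these 7, 3 had a positive log2 fold change, and the values ran from -2.03 to 1.23 with a median of -0.09. The part of these cells in the p38i values was not tested. In such bulk tumours, fewer cells that carry a transcript and less of it per cell cannot be told apart. No removal of mouse reads is recorded, and their part in the counts was not tested. Cells from the host would be mouse cells, and these counts on human gene symbols do not measure how many were present.

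Tests were edgeR quasi-likelihood F tests from 1 model of all 12 libraries, with p-values adjusted by Benjamini-Hochberg over the 12514 genes and a threshold of 0.05, and a log2 fold change is given ± its standard error. None of the 9 genes passed in any of 7 comparisons: each treated group against control, the combination against each single inhibitor, the EZH2 inhibitor main effect (6 tumours with EPZ-6438 against 6 without), and the interaction of the inhibitors. The share of all tested genes that passed was 1.77% for p38i, 0.216% for EZH2i and 0.00799% for the combination against control, 0% for the combination against p38i or EZH2i and for the main effect, and 0.024% for the interaction. DESeq2 and limma-voom also called 0 of the 9 in each comparison.

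HLA-B, a classical heavy chain, stood at 660.2, 506 and 563 CPM in control tumours, 623, 557 and 412 with p38i, 807, 444 and 426 with EZH2i and 820.5, 631 and 583 with the combination. All 4 groups overlapped, and the EZH2i group alone ran from near the lowest to near the highest value of the series. With EZH2i its fold was 0.970 of control (95% confidence interval 0.681 to 1.38) and with the combination 0.23 ± 0.24 on the log2 scale (edgeR adjusted p = 0.631). Without EZH2i 5-3, the EZH2i estimate went from -0.04 to -0.38 (edgeR adjusted p = 0.358), and without combination 8-1 that of the combination was 0.09.

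HLA-C had 275, 232 and 218 CPM in control, 267, 286 and 215 with p38i, 318, 304 and 225 with EZH2i and 336, 255 and 264 with the combination. It varied least of the 9, with a highest level 1.57 times its lowest, and its groups overlapped throughout. The 6 tumours with the EZH2 inhibitor averaged 1.14 times those without (interval 0.949 to 1.37).

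HLA-E, the ligand of NKG2A, had 240.2, 228 and 201 CPM in control, 243, 187 and 262 with p38i, 242, 175 and 165 with EZH2i and 180.5, 140.4 and 149 with the combination. Each combination tumour was below every control and every p38i tumour, while the EZH2i group overlapped the control. The fold of the combination was 0.703 of control (interval 0.538 to 0.917; unadjusted p = 0.0129, edgeR adjusted p = 0.230) and 0.680 of p38i (unadjusted p = 0.00754, edgeR adjusted p = 0.582). Against p38i the log2 value was -0.70 without col5 and -0.45 without col6. In the main effect HLA-E was at 0.769 of the level without the inhibitor (log2 -0.38 ± 0.13; unadjusted p = 0.00934, edgeR adjusted p = 0.468). That estimate lay between -0.46 and -0.32 whichever tumour was left out.

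B2M, shared by all class I molecules, was measured at 1600.1, 1829 and 2563 CPM in control, 1730.5, 1469 and 1378 with p38i, 2167, 1870.3 and 1774 with EZH2i and 2031, 2291 and 2091 with the combination. The p38i tumours held the 2 lowest values, and all 3 lay below all 3 combination tumours. The control group spanned most of the range: control 2-1 was the highest tumour of the series and control 1-1 the lowest outside p38i. The p38i fold was 0.764 of control (log2 -0.39 ± 0.18; unadjusted p = 0.0429, edgeR adjusted p = 0.254), and the log2 value was -0.16 without control 2-1, -0.34 without col5 and -0.31 without col6. The combination was at 1.40 times p38i (unadjusted p = 0.0144, edgeR adjusted p = 0.582), or 0.45 and 0.42 on the log2 scale without col5 and without col6. EZH2i alone was at 0.970 of control, with an interval of 0.748 to 1.26.

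**Figure D1:**
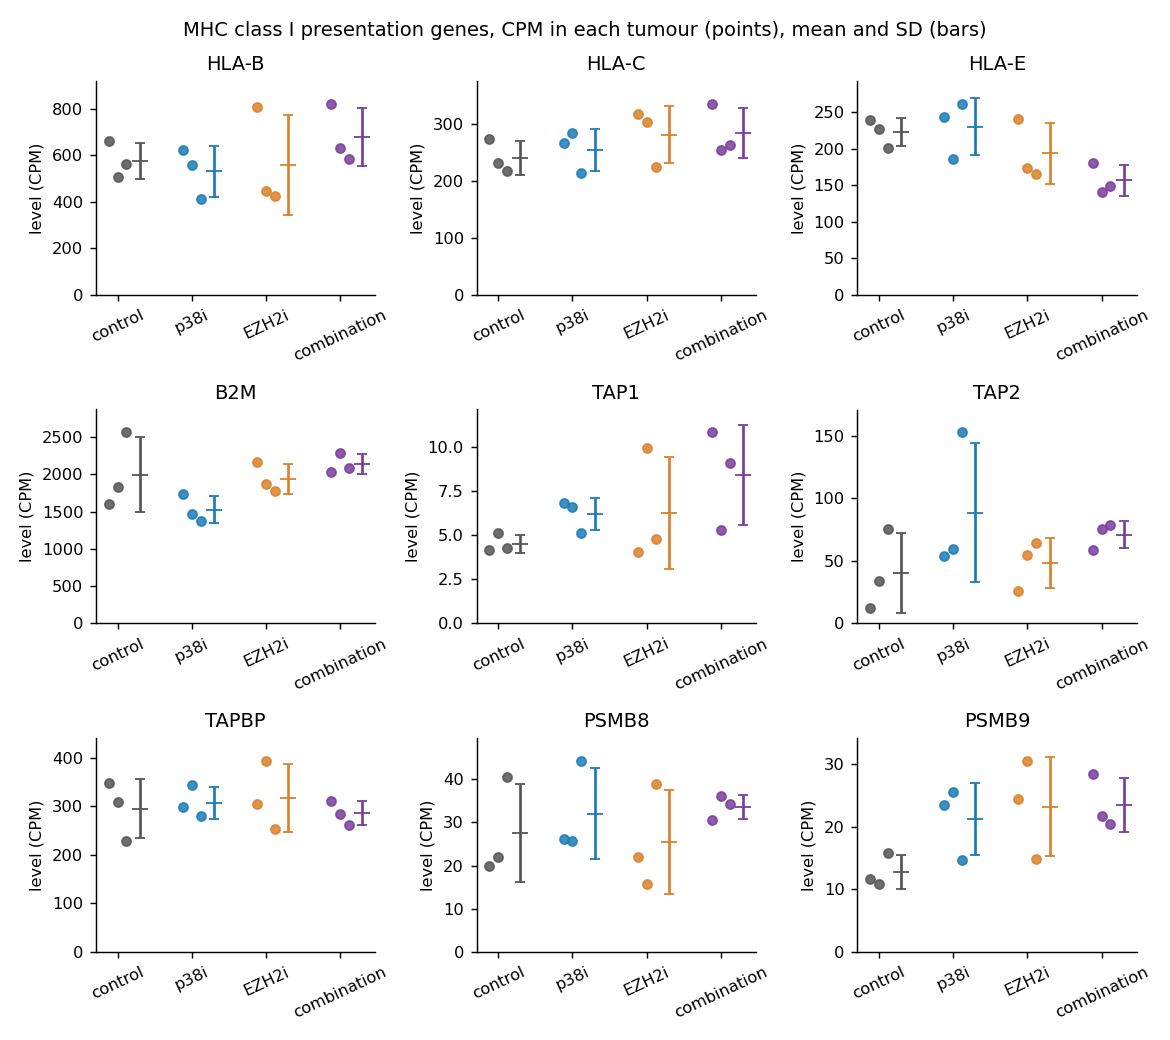
Level of each of the 9 genes in CPM (vertical axes, from 0) in the 12 tumours, by group; points are tumours, and the bars beside them give the mean and SD of 3 tumours. The combination tumours lie below the controls for HLA-E (140.4 to 180.5 against 201 to 240.2 CPM) and above them for TAP1 and PSMB9, and TAP2 differs widely within the control and p38i groups.

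The transporter genes were measured at low depth or with a wide spread. TAP1 was counted only 10 to 40 times per library, at 4.16, 5.10 and 4.27 CPM in control, 6.82, 6.62 and 5.14 with p38i, 4.07, 9.94 and 4.80 with EZH2i and 10.8, 5.28 and 9.10 with the combination. Every p38i and every combination tumour exceeded every control, though p38i col6 and control 1-3 nearly met, and EZH2i 5-4 alone carried the higher mean of its group. The combination fold was 1.84 (interval 1.03 to 3.26; unadjusted p = 0.0391, edgeR adjusted p = 0.286), and the EZH2i value on the log2 scale, 0.52 ± 0.40, became -0.03 without EZH2i 5-4.

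TAP2 covered the widest range, at 12.1, 33.9 and 75.1 CPM in control, 53.9, 59.3 and 153 with p38i, 25.6, 54.4 and 64.2 with EZH2i and 58.6, 75.7 and 78.8 with the combination. The controls alone differed 6.22-fold, and the highest tumour, p38i col6, was 12.6-fold above the lowest, control 1-1. Only 4.14% of tested genes had a larger ratio of highest to lowest level, and the median gene had 2.22. The p38i value on the log2 scale was 1.10 ± 0.59 (edgeR adjusted p = 0.350). It was 0.46 without p38i col6, the library with the muscle transcripts, whose part in this level was not tested, 0.71 without control 1-1 and 1.92 without control 2-1. The interval of the EZH2i fold, 0.465 to 2.91, ran from well below 1 to well above it.

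TAPBP, the loading chaperone, had 347, 309.5 and 229 CPM in control, 298, 344 and 279.9 with p38i, 305, 394 and 254 with EZH2i and 311, 284 and 262 with the combination. Groups overlapped in every comparison, and the main effect was 1.00-fold with an interval of 0.825 to 1.22.

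PSMB8, which encodes the immunoproteasome subunit LMP7, was at 20.0, 21.9 and 40.5 CPM in control, 26.2, 25.7 and 44.3 with p38i, 22.0, 15.7 and 38.9 with EZH2i and 30.5, 36.1 and 34.2 with the combination. A single tumour stood high in the control, p38i and EZH2i groups, and the combination tumours lay inside the range of the controls. Its main effect was 0.970-fold, between 0.680 and 1.38.

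PSMB9, which encodes LMP2, was the member whose estimate was highest for EZH2i against control and in the main effect. It had 11.7, 10.8 and 15.9 CPM in control (mean 12.8 ± 2.72, SD, n = 3), 23.5, 25.7 and 14.7 with p38i (21.3 ± 5.82), 24.4, 30.6 and 14.8 with EZH2i (23.3 ± 7.93) and 28.4, 21.8 and 20.4 in combination tumours (23.5 ± 4.29). The combination tumours were above every control, whereas 1 tumour each of p38i and EZH2i lay among the controls. Against control the log2 values were 0.72 ± 0.29 for p38i (unadjusted p = 0.0279, edgeR adjusted p = 0.209), 0.87 ± 0.30 for EZH2i (unadjusted p = 0.0102, edgeR adjusted p = 0.204) and 0.87 ± 0.29 for the combination (unadjusted p = 0.00974, edgeR adjusted p = 0.224). These 3 values share the same control tumours, in which PSMB9 had 28 to 67 counts, and the p38i value was 0.57 without col5 and 0.94 without col6. Between the combination and EZH2i no difference was detected (fold 0.999, interval 0.660 to 1.51). The main effect was 1.42-fold (interval 1.05 to 1.92; unadjusted p = 0.0249, edgeR adjusted p = 0.503).

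**Figure D2:**
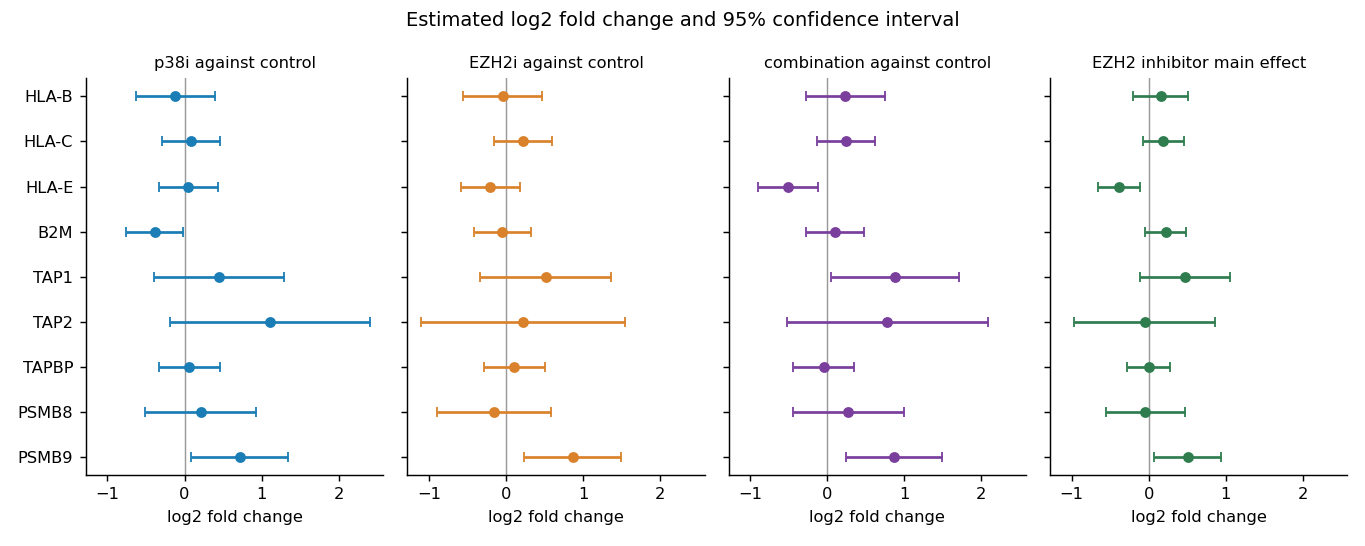
Log2 fold change of each gene (horizontal axis; point) with its 95% confidence interval (line) for the 3 treated groups against control and for 6 tumours with EPZ-6438 against 6 without. The intervals of PSMB9 lie above 0 in all 4 panels, which share the same control tumours. Those of HLA-E lie below 0 in the combination and main effect panels. That of B2M lies below 0 with p38i and that of TAP1 above 0 with the combination. None passed after adjustment over 12514 genes.

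Before adjustment, p-values under 0.05 were found for 2 of the 9 genes with p38i (18.4% of all tested genes), 1 with EZH2i (14.7%) and 3 with the combination (16.3%), each against control. The same counts were 2 for the combination against p38i (7.81%), 0 against EZH2i (3.12%), 2 for the main effect (9.33%) and 1 for the interaction (13.1%). Counts of 0 to 3 among 9 genes are too small to be told from these shares, and nothing is read from them. The interaction count is B2M, whose log2 value was 0.53 ± 0.25 (unadjusted p = 0.0494, edgeR adjusted p = 0.380).

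Genes whose groups did not overlap are given beside the shares of all tested genes. The counts among the 9 are too small to be told from these shares. Against control, TAP1 was higher in every p38i tumour (12.3% of tested genes were, and 12.5% were lower), and none of the 9 genes was apart with EZH2i (8.32% higher, 8.09% lower). TAP1 and PSMB9 were higher and HLA-E lower in every combination tumour (10.7% and 11.2%). The combination was apart from p38i for B2M, higher, and HLA-E, lower (6.77% and 8.18%), and apart from EZH2i for none (3.34% and 3.77%). The median log2 value of the 9 genes was 0.08 with p38i, 0.11 with EZH2i, 0.24 with the combination and 0.16 in the main effect, beside medians between -0.001 and 0.011 over all tested genes. The genes with positive values numbered 7, 5, 7 and 6 of 9. Over all tested genes 6245, 6385, 6309 and 6510 of 12514 were positive, in the same order. Counts among 9 genes are too small to be told from these shares.

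Class I genes are often induced together, so the 9 levels were compared with each other over the 12 tumours. Of 36 pairs, 20 had a positive Pearson correlation of log2 CPM. TAPBP and PSMB8 were opposed, with r = -0.859 (permutation p = 0.00046, adjusted over 36 pairs 0.0166) and rho = -0.867 (permutation p = 0.00065, adjusted 0.0234). Without control 2-1 and EZH2i 5-4, the tumours farthest from the median of TAPBP, r was -0.770, and after removal of group means it was -0.917. TAP2 and PSMB8, neighbours on chromosome 6, had r = 0.714 (permutation p = 0.00694, adjusted 0.114) and rho = 0.832 (permutation p = 0.00143, adjusted 0.0257), with r = 0.640 without control 1-1 and p38i col6.

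The head-to-head pair TAP1 and PSMB9 had r = 0.664 (permutation p = 0.0210, adjusted 0.134) and rho = 0.594 (permutation p = 0.0458, adjusted 0.206). That relation rested in part on combination 8-1 and EZH2i 5-4, without which r was 0.433, and on TAP1 counts of 40 or fewer. HLA-B and HLA-C had r = 0.681 (permutation p = 0.0160, adjusted 0.134) and rho = 0.636 (permutation p = 0.0301, adjusted 0.155), and r was 0.371 without combination 8-1 and EZH2i 5-3. HLA-C and PSMB9 had a higher r of 0.725 (permutation p = 0.00946, adjusted 0.114) and rho = 0.741 (permutation p = 0.00789, adjusted 0.0731), with r = 0.659 without combination 8-1 and p38i col6. HLA-C and TAPBP had r = 0.647 (permutation p = 0.0223, adjusted 0.134) and rho = 0.734 (permutation p = 0.00812, adjusted 0.0731), and r = 0.730 without those tumours. HLA-C and PSMB8 had r = -0.614 (permutation p = 0.0357, adjusted 0.184) and rho = -0.678 (permutation p = 0.0186, adjusted 0.134), and r = -0.699 without those tumours. Apart from TAPBP with PSMB8 by both measures and TAP2 with PSMB8 by rho, no pair passed after adjustment. After removal of group means, r was 0.51 for TAP1 with PSMB9, 0.76 for HLA-B with HLA-C and 0.71 for TAP2 with PSMB8. For HLA-C it was 0.71 with PSMB9, 0.75 with TAPBP and -0.82 with PSMB8. The permutations ran over all tumours regardless of group, so these p-values do not separate group differences from relations within groups.

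**Figure D3:**
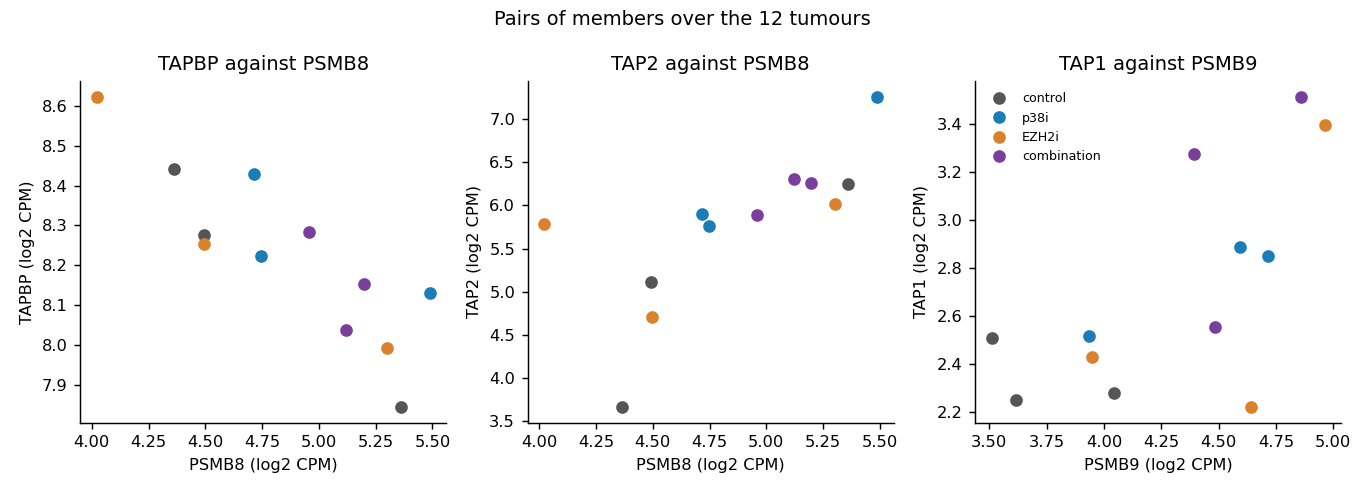
Log2 CPM of 3 pairs of genes, 1 point per tumour, coloured by group. TAPBP is lower in tumours with more PSMB8 (r = -0.859), TAP2 and PSMB8 are high together apart from EZH2i 5-4, which has the lowest PSMB8 (r = 0.714), and TAP1 and PSMB9 show a looser relation (r = 0.664).

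Averaged after scaling each gene to mean 0 and SD 1, the members were lowest in EZH2i 6-1 (-0.52), control 1-3 (-0.46) and control 1-1 (-0.42) and highest in combination 8-1 (0.75). The tested genes outside the set with the most similar pattern over the 12 libraries were ZNF185 (r = 0.908), SARNP (0.899), ALDH9A1 (0.883), MOSPD1 (0.837), NAA10 (0.834), NUP50-AS1 (0.826), RAN (0.816) and WARS (0.814). They were picked for this likeness from all tested genes outside the set, so the values describe the ranking only.

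Genes that act beside the members were taken from lists. Of 16 tested antigen processing genes outside the 9, 0 passed in any comparison, with a median main effect of -0.05 on the log2 scale. The largest main effects in that list were those of the peptidase genes NRD1 (-0.31 ± 0.13), THOP1 (0.29 ± 0.17) and ERAP1 (-0.29 ± 0.15), the last of which trims peptides in the endoplasmic reticulum. PSMB8 and PSMB9 take the places of the constitutive subunits PSMB5 and PSMB6, whose main effects were 0.14 ± 0.14 and 0.04 ± 0.12.

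None of 17 tested transcription regulators of class I genes passed in any comparison. Their median main effect was 0.16, as for the 9 members, and the largest values belonged to RFXANK (-0.57 ± 0.35), NFYB (0.34 ± 0.16) and NFKB1 (0.28 ± 0.10), which encode subunits of RFX, NF-Y and NF-kB. NLRC5, the class I transactivator, had only 13 to 35 counts per library and a main effect of -0.16 ± 0.25. All 6 genes of the PRC2 core were tested and 0 passed; the EZH2 transcript itself had a main effect of -0.02 ± 0.14. RNA levels of PRC2 genes do not measure inhibition of its enzyme.

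Interferon genes were read beside PSMB9 and TAP1, which are known targets. On the interferon gamma list 17 of 25 genes were tested and 0 passed in any comparison, with a median main effect of 0.01. Against control the list medians were 0.28 with p38i, 0.19 with EZH2i and 0.34 with the combination. Positive values against control numbered 12, 9 and 11 of the 17. IFNG, IRF8, SOCS1, GBP5, IDO1 and the chemokines CXCL9, CXCL10 and CXCL11 had too few counts to be tested. The largest main effects were those of GBP4 (-0.43 ± 0.36), ICAM1 (0.38 ± 0.40) and STAT3 (-0.36 ± 0.15). Of 31 tested genes of the type I response, 0 passed, 6 had a positive main effect and the median was -0.15, with TRIM21 at 0.93 ± 0.33, XAF1 at -0.82 ± 0.28 and MX1 at -0.51 ± 0.30. IFNB1 was at 0 in all libraries.

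**Figure D4:**
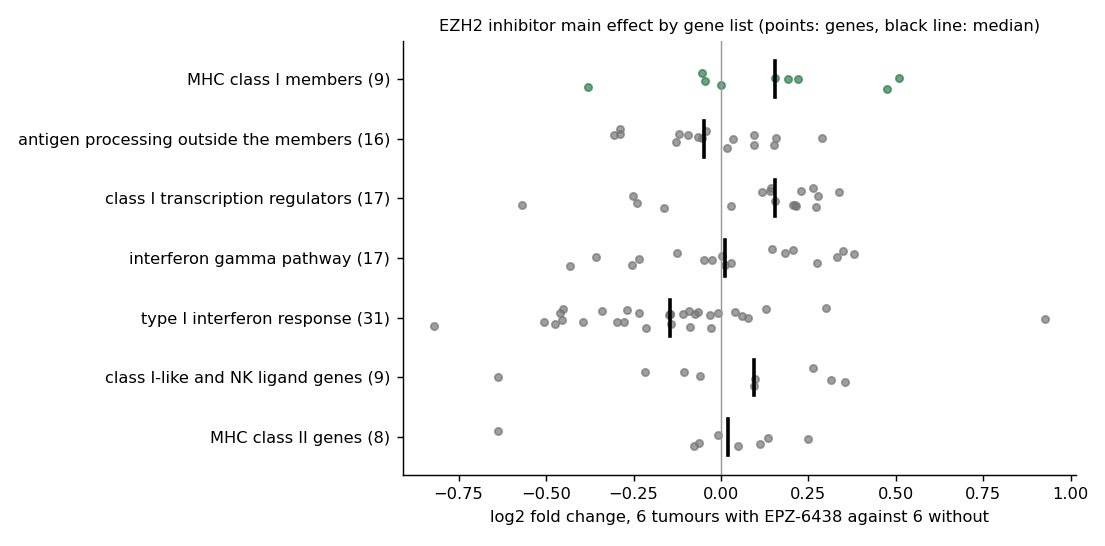
Main effect of the EZH2 inhibitor (horizontal axis, log2 fold change of 6 tumours with EPZ-6438 against 6 without) for each tested gene of 7 lists, with the list median as a black line and the number of genes in brackets. The 9 class I members run from -0.38 to 0.51 around a median of 0.16, and the type I interferon list runs from -0.82 to 0.93.

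The class I-like genes, ligands of NK and other receptors, held 1 gene that passed, and no gene passed in the other pathway, interferon, regulator, class II and PRC2 lists. MICB, a stress-induced ligand of the activating receptor NKG2D, was at 28.7, 42.3 and 42.2 CPM in control, 73.3, 80.6 and 74.4 with p38i, 67.1, 95.7 and 47.6 with EZH2i and 59.5, 68.7 and 61.5 with the combination. Every treated tumour exceeded every control. MICB rose with p38i by 1.00 ± 0.22 on the log2 scale (edgeR adjusted p = 0.0418) and did not pass with EZH2i (0.89 ± 0.23; edgeR adjusted p = 0.121) or the combination (0.74 ± 0.23; edgeR adjusted p = 0.197). The call held in 10 of 18 alternative settings and was lost without control 1-1, control 1-3, any p38i tumour or any combination tumour, with adjusted p-values from 0.0517 to 0.148 and log2 values of 0.85 to 1.09.

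MHC class II genes, which present peptides to CD4 T cells, had larger estimates than the class I genes but did not pass the test. Of 8 tested, 7 had negative values in each treated group, with medians of -2.34 with p38i, -1.56 with EZH2i and -0.78 with the combination, and 0 passed in any comparison. The summed level of the 13 listed genes was 219.8 to 574 CPM in control, 60.7 to 109 with p38i, 81.3 to 252.5 with EZH2i and 70.9 to 343 with the combination, so that the EZH2i and combination groups overlapped the control. The invariant chain CD74 had 121.5, 176.5 and 256 CPM in control, 42.9, 51.3 and 20.8 with p38i, 124, 38.8 and 38 with EZH2i and 95.2, 162.5 and 28.2 with the combination. Its p38i tumours lay below every control (log2 -2.28 ± 0.68; edgeR adjusted p = 0.119), and the other treated groups overlapped the control.

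Reads of the class I chains could in part be shared between genes. In GENCODE v29 transcripts, 2.54% of 50-base words of HLA-B, 6.71% of HLA-C and 5.13% of HLA-E also occurred in another gene of the table. Over the last 500 bases, which a 3' end method would read, the shares were 2.88%, 2.88% and 0%. Only exact matches from 1 reference transcript per member were counted, so near matches and the alleles of this line were not covered. TAPBP overlaps RGL2 by 1919 bases, and TAP1 and PSMB8 overlap the lncRNA PSMB8-AS1 by 1292 and 594 bases in RefSeq. Whether strand was used in counting is not given in the sources used here, so reads from these stretches cannot be assigned to 1 gene.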

How the data were processed

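Expression was measured by RNA-seq in 12 tumours, 3 per group. The authors' deposited values are raw counts per gene symbol, with no scaling recorded, per the file headers. The submitters' processing notes list Trim Galore 0.5.0, a read trimmer, STAR 2.6.0, an aligner, and the build hg19. The counting program and its use of strand are not given in the sources used here. The protocols name both a SMARTer kit and QuantSeq, a 3' end method. The labels do not say that the 3 tumours of a group came from separate mice, so p-values measure only the spread between these tumours. The table's 3 lines without a gene name, with 0 counts, were not used.

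In R 4.3.3, the filterByExpr function (edgeR 4.0.16) retained 12514 genes. Libraries were scaled by TMM, and 1 quasi-likelihood model with 4 group terms was fitted to all 12, with the robust option and a biological coefficient of variation of 0.219. The code was tested on simulated counts. P-values were two-sided and adjusted by Benjamini-Hochberg. Pair correlations used log2 CPM (prior count 2) and 100000 permutations of 1 gene over the tumours, two-sided (Python 3.11.15, NumPy 2.4.6). Counts per gene differed widely, from 10 to 40 for TAP1 and from 3844 to 10813 for B2M. Precision depended on these counts and on the spread between tumours. TAP2, with 29 to 624 counts, had a larger standard error for p38i against control (0.59) than TAP1 (0.40). Alternatives were library totals without TMM, DESeq2 1.42.0, limma-voom (limma 3.58.1), no filter on low counts, a minimum mean of 5 CPM, a fit of only the groups compared, and leaving out each library.

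The 9 members, the other gene lists and the tests were chosen with earlier results of these data known. All 9 members are named; from the other pathway, interferon and regulator lists, genes past the threshold are named, or else up to 3 with the largest main effect of the EZH2 inhibitor. Lists of cell type markers are given as sums and counts, and NLRC5, EZH2, CD74, TIE1 and PDGFRB were named after their values were seen. The 8 most similar genes were those with the highest Pearson correlation with the members' mean scaled level. MHC class II genes fell under the same rule, with HLA-DMA at -0.64 ± 0.43, HLA-DPB1 at 0.25 ± 0.70 and HLA-DRA at 0.13 ± 0.63 in the main effect, and in the PRC2 list RBBP4 was at -0.44 ± 0.15, RBBP7 at 0.25 ± 0.16 and EED at 0.19 ± 0.13. Endothelial markers summed to 66.9 to 115 CPM and fibroblast markers to 289 to 1126 CPM over the libraries, and 7 genes expected to be low in MDA-MB-231 to 95.0 to 230.2 CPM. Some genes of these lists are not reported here.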

Additional observations from a re-analysis of the deposited data

How the results depend on the processing

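Counts of members past the threshold were 0 in all 7 comparisons under each of the 18 alternative settings that could be run for them (124 counts). Of 692 member log2 values under an alternative (the comparisons with control, the main effect, and members with an unadjusted p under 0.05 elsewhere), 39 took the other sign and 0 passed the threshold. TAPBP turned to 0.0156 (combination against control, library totals alone) and to -0.0009 (main effect, a mean of at least 5 CPM), and TAP2 to 0.11 (main effect, limma-voom). Leaving out 1 library gave a value of the other sign for the following. Against control with p38i, HLA-E ran from -0.0443 to 0.20, HLA-B from -0.25 to 0.0433, PSMB8 from -0.10 to 0.62 and TAPBP from -0.0909 to 0.20. With EZH2i, B2M ran from -0.18 to 0.18, HLA-B from -0.38 to 0.12, TAP2 from -0.18 to 1.03, PSMB8 from -0.58 to 0.25, TAP1 from -0.0302 to 0.76 and TAPBP from -0.0783 to 0.26. With the combination, B2M ran from -0.034 to 0.32 and TAPBP from -0.20 to 0.0944. In the main effect HLA-B ran from -0.0149 to 0.24, TAP2 from -0.26 to 0.35, PSMB8 from -0.26 to 0.16 and TAPBP from -0.0913 to 0.0753. The cause was not tested. Over all genes, the main fits called 221 for p38i, 27 for EZH2i, 1 for the combination, 0 for the main effect and 3 for the interaction. DESeq2 called 620, 230, 167, 20 and 226, the fit without a low-count filter 292, 114, 42, 0 and 70, and limma-voom 165, 16, 1, 0 and 3. Library totals alone gave 18 for EZH2i and 3 for the combination, and the groups compared alone gave 4 for each. For the combination against p38i DESeq2 called 4 genes and against EZH2i 1, where edgeR called 0. Leaving out 1 library gave 2 to 568 calls for p38i, 2 to 125 for EZH2i, 0 to 229 for the combination and 2 to 42 for the interaction. MICB with p38i had adjusted p-values from 0.00358 (DESeq2) to 0.148. No paired analysis was possible because the groups share no replicate numbers.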
